A study of Mus musculus with 24 samples.

Results

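The genes described here are 10 enzymes and carriers that take fatty acids into the fat cell and store them as triglyceride: Lpl, Cd36, Slc27a1, Fabp4, Acsl1, Gpam, Agpat2, Lpin1, Dgat1 and Dgat2. They were chosen by symbol from their roles in this pathway, without use of their measured values in the rule, and are 10 of the 24421 gene symbols counted in each library. Total RNA of adipose tissue was sequenced from C57BL/6 mice at the age of 2 months, in 6 groups of 4 libraries each: wild-type (WT) males and females, and males and females carrying the STAT5B-Y665F or the STAT5B-Y665H point mutation. Both changes replace the same tyrosine of STAT5B, by phenylalanine in Y665F and by histidine in Y665H. No sample had a treatment in the labels, and no transgene or Cre is named. Whether the mutant mice carried 1 or 2 copies, which fat depot was taken and whether the 4 libraries of a group came from 4 animals are not given in the sources used here. The p-values therefore measure the spread between these libraries only, and a difference between the sexes cannot be told apart from a difference between depots. In bulk tissue, fewer cells of a type and less RNA per cell cannot be told apart either.

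Triglyceride carried in the blood by lipoproteins is cut by lipoprotein lipase (LPL) at the capillary wall, and the fatty acids released are taken up with the help of the scavenger receptor CD36 and of fatty acid transport proteins such as FATP1, the product of Slc27a1. Inside the cell FABP4 carries the fatty acid, ACSL1 joins it to coenzyme A, and the glycerol 3-phosphate pathway builds it into triglyceride in the order GPAM, AGPAT2, lipin-1 and the diacylglycerol acyltransferases DGAT1 and DGAT2. Loss of AGPAT2 or lipin-1 is known to cause lipodystrophy, and STAT5B carries the signal of growth hormone, a regulator of fat mass, into the nucleus.

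The summed gene counts ran from 21.0 to 41.3 M per library (M, 1e6 counts), with a median of 34.6 M, so that all 10 genes were counted far above the level of 3 counts, which was at most 0.143 counts per 1e6 gene counts (CPM). Entries that name no gene held 24.8 to 39.7% of all counts, and the ribosomal RNA gene Rn45s 3.27 to 15.0% of the gene counts. All 12 adipocyte markers averaged at least 1 CPM in every group. 3 libraries stood apart in the 10 genes before any comparison: WT male 2 was the lowest of its group for 9 of the 10, Y665F female 3 for 9 and Y665F male 4 for 8. In WT male 2 the 10 epididymis markers summed to 15399 CPM and the 12 adipocyte markers to 7493 CPM, against 18207 to 19464 CPM for the adipocyte markers in the other WT males. In Y665F female 3 the 12 epithelium markers summed to 1993 CPM, against 137 to 382 CPM in the other Y665F females, and its adipocyte sum of 12139.9 CPM was the lowest of the 12 female libraries. In Y665F male 4 the epididymis sum was 1109 CPM and the adipocyte sum, 12029.8 CPM, the lowest of the Y665F males. Higher epididymis sums than this were also found in WT male 3 (3415 CPM), Y665H male 3 (1628 CPM) and WT male 4 (1259 CPM). These were the lowest of their groups for 0, 6 and 1 of the 10 genes. The part of these markers in the results below was not tested. Each call was recomputed without each library in turn.

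Levels were expressed per kb of the main transcript, so that genes of different length can be set side by side. In WT females, carriers and enzymes were mixed in the order of the levels. Fabp4 was highest at a mean of 3937 CPM per kb, followed by Lpl at 1800.4, Dgat2 at 1333, Acsl1 at 755 and Cd36 at 642 CPM per kb. Agpat2 at 279.6 and Slc27a1 at 235 CPM per kb came next, and Dgat1 at 99.96, Gpam at 93.7 and Lpin1 at 93.6 CPM per kb were lowest. Of these neighbours, Lpl and Dgat2, Acsl1 and Cd36, Agpat2 and Slc27a1, Dgat1 and Gpam, and Gpam and Lpin1 overlapped between the 4 libraries. The 2 enzymes of the last step stood far apart, with Dgat2 above Dgat1 per kb in every WT female. Together the 10 genes took 2.03 to 2.29% of the gene counts in WT females, 2.34 to 2.53% in Y665H females and 1.14 to 2.06% in Y665F females, and a median of 1.36%, 2.04% and 1.68% in WT, Y665H and Y665F males. The Y665H females had the highest mean of the 6 groups for 6 of the 10 genes (Slc27a1, Fabp4, Acsl1, Gpam, Agpat2 and Dgat1) and the Y665H males for 3 (Lpl, Cd36 and Lpin1), while Dgat2 was highest in WT females.

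**Figure D1:**
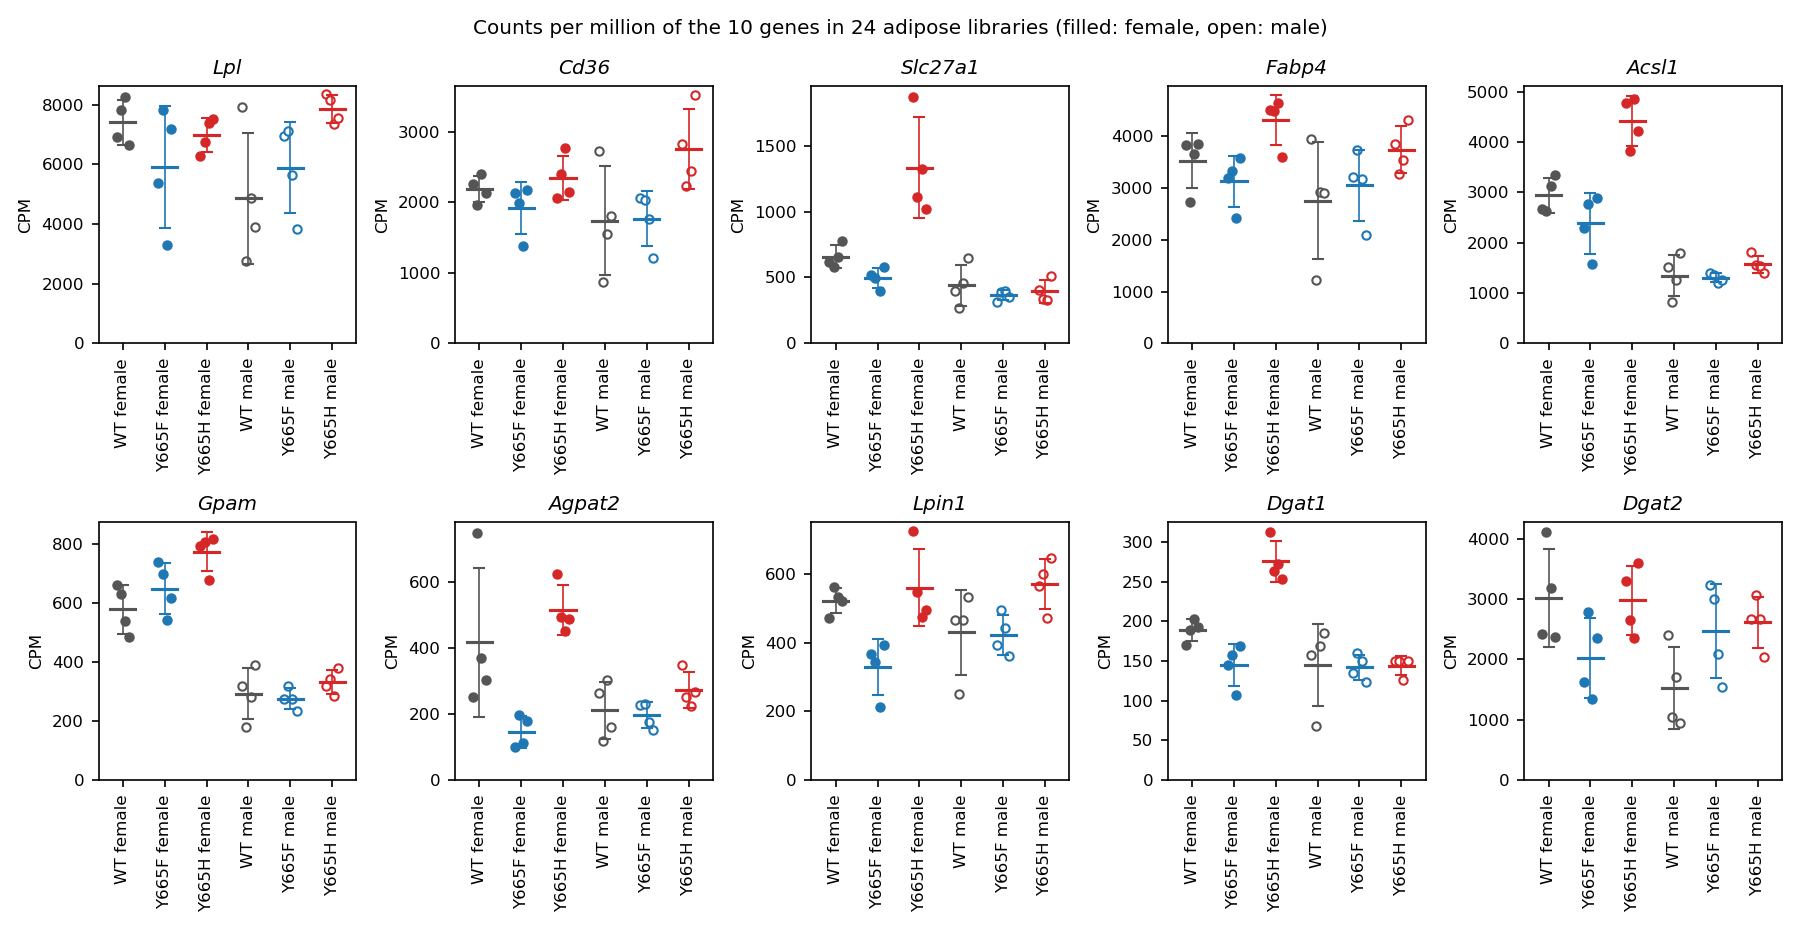
Each panel plots 1 gene, with CPM on the vertical axis (from 0) and the 6 groups on the horizontal axis. Points are libraries (filled for females, open for males), lines the mean and bars the SD of 4 libraries. The Slc27a1, Acsl1 and Dgat1 panels show the 4 Y665H females above every other library, from 1018, 3819 and 253 CPM upwards.

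Promoters are shown for 4 of the genes that were higher in Y665H than in Y665F females, since STAT5 proteins bind DNA at the palindrome TTCNNNGAA. RefSeq windows of the 250 bases before an annotated start (build GRCm38.p6, the assembly that mm10 names) were at hand for 6 of the 10 genes, in 10 windows. The 5 printed here read 5′ to 3′ on the strand of the gene. Capitals mark the CCAAT box (letters CCAAT, or ATTGG on the other strand), the E-box CACGTG and the sterol regulatory element TCACNCCAC, all searched on both strands. The first Slc27a1 window lies at chr8:71568621-71568870 and the second, at an alternative start within the gene, at chr8:71570344-71570593, both on the plus strand. The Acsl1 window printed, at an alternative start, lies at chr8:46490716-46490965 on the plus strand. The Agpat2 window lies at chr2:26604418-26604667 and the Lpin1 window at chr12:16610967-16611216, both on the minus strand. Not printed are the Acsl1 window before the gene's first base (chr8:46470787-46471036) and a further Slc27a1 window (chr8:71569347-71569596). Neither held a match to any motif searched here. Of the 5 windows printed, those at alternative starts lie within their genes and the others outside them. Overlap with annotated exons was not tested.
Slc27a1, first start: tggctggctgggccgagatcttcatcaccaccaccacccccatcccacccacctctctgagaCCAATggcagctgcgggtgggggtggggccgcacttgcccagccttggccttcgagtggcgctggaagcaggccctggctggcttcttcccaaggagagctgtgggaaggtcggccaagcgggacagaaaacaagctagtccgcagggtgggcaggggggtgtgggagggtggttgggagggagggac
Slc27a1, alternative start: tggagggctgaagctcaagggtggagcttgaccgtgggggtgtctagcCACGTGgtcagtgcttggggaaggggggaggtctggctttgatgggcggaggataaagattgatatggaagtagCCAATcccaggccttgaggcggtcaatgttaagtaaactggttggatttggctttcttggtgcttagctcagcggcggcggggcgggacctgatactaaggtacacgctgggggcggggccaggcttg
Acsl1, alternative start: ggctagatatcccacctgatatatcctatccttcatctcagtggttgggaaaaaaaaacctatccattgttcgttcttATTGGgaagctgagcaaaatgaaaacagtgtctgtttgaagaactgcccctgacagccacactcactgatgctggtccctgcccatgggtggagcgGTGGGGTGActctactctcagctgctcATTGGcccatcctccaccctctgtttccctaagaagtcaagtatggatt
Agpat2: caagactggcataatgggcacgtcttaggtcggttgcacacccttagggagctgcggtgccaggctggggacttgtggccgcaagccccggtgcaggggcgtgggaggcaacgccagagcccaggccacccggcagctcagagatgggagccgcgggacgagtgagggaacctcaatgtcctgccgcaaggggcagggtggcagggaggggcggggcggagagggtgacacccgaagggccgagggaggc
Lpin1: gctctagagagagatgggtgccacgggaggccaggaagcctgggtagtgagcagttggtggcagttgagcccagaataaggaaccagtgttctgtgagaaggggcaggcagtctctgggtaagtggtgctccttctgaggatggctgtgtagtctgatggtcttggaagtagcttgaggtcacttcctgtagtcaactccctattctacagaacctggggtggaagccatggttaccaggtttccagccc
The STAT palindrome TTCNNNGAA was in none of the 10 windows, against 7.02% of the 32851 windows of the same length in the RefSeq table. The CCAAT box was in 5 windows, of Slc27a1, Acsl1, Cd36 and Gpam, against 33.8% of all windows. The E-box was in the alternative Slc27a1 window (6.02% of all windows) and the sterol regulatory element in the Acsl1 window shown (1.05%). The peroxisome proliferator response element, searched as a perfect direct repeat with 1 base between the copies, was in none of the 10 (0.0335% of all windows). A match is a run of letters only, and these windows leave out distal sites.

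Between the 2 mutations, the contrast in females gave calls and that in males none. Of the 10 genes, 5 were called higher in Y665H than in Y665F females by edgeR's quasi-likelihood test (adjusted p under 0.05 over all genes tested, here and below termed called) and none lower: Slc27a1, Acsl1, Agpat2, Lpin1 and Dgat1, which cover uptake, activation and 3 steps of esterification. Over all 15493 genes tested, 17.4% were called and 8.77% were called higher. All 10 log2 fold changes were above 0, with a median of 0.81 against -0.03 over all genes tested, and 6 of the 10 genes had groups that did not overlap, all higher in Y665H (28.1% of all genes tested, 6.62% with Y665H higher). The lipase, the receptor CD36 and DGAT2, which are among the most abundant of the set, were not called. By DESeq2, 8 of the 10 genes were called higher, all but Lpl and Cd36.

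At the entry to the pathway, Lpl (chr8:68880491-68907448, plus strand) had levels of 5382, 7829.9, 3289 and 7175 CPM in the 4 Y665F females and 6279, 6768, 7376 and 7525 CPM in the 4 Y665H females. The groups overlapped, and the log2 fold change was 0.37 (SE 0.28, adjusted p = 0.370). Cd36 (chr5:17781690-17888801, minus strand) had 2126, 1995, 1376 and 2169.8 CPM in Y665F and 2063, 2394, 2767 and 2141 CPM in Y665H females, with a log2 fold change of 0.43 (SE 0.18, adjusted p = 0.144). 2 of the 4 Y665F libraries lay within the Y665H range of Cd36 and the other two below it.

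Slc27a1 (chr8:71568882-71587302, plus strand), which encodes the fatty acid transport protein FATP1, had 617, 581, 654 and 779 CPM in WT females, 518, 492, 401 and 577 CPM in Y665F females and 1872, 1109.6, 1325 and 1018 CPM in Y665H females. The 3 groups did not overlap, with Y665H above WT and WT above Y665F. The mean of the Y665H females was 1331 ± 383 CPM (SD, n = 4), against 497 ± 73.2 CPM (SD, n = 4) in Y665F females. The fitted difference was 2.99-fold (95% confidence interval 2.05 to 4.37), a log2 fold change of 1.58 (SE 0.24, adjusted p = 0.00449), and it was called without each of the 8 libraries in turn. Fabp4 (chr3:10204088-10208576, minus strand), the cytosolic fatty acid carrier, had 3190.3, 3334, 2427 and 3581 CPM in Y665F and 4515, 4501, 4647 and 3601 CPM in Y665H females. The lowest Y665H library lay just above the highest Y665F library, and the log2 fold change of 0.61 (SE 0.18, adjusted p = 0.0529) missed the threshold, although it was called without Y665F female 3 (adjusted p = 0.0336) and by DESeq2 (adjusted p = 0.00190).

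Acsl1 (chr8:46471037-46536051, plus strand), the main long-chain acyl-CoA synthetase of fat cells, had 2673, 2628, 3131 and 3341 CPM in WT females, 2298, 2771, 1571 and 2889 CPM in Y665F females and 4778, 3819, 4856 and 4216 CPM in Y665H females. Every Y665H female lay above every WT and Y665F female. The difference between the mutants was 2.05-fold (95% confidence interval 1.43 to 2.94), a log2 fold change of 1.03 (SE 0.23, adjusted p = 0.0180). The call was lost without Y665F female 1 (adjusted p = 0.0560) and without Y665H female 1 (adjusted p = 0.0534).

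In the esterification steps, Gpam (chr19:55067268-55127238, minus strand), which adds the first fatty acid to glycerol 3-phosphate, had 738, 697, 542 and 618 CPM in Y665F and 794, 808, 677 and 818 CPM in Y665H females. The groups overlapped, and the log2 fold change of 0.40 (SE 0.14, adjusted p = 0.0822) was not called, although DESeq2 called it (adjusted p = 0.0228). Agpat2 (chr2:26593057-26604417, minus strand), which adds the second fatty acid, had 249.3, 746, 368 and 302 CPM in WT females, 98.5, 195, 111 and 177 CPM in Y665F females and 623, 493, 451 and 486 CPM in Y665H females. All 4 Y665F libraries lay below all WT and Y665H libraries, and WT female 2 lay above every other library. Agpat2 had the highest log2 fold change of the 10 genes between the mutants, 1.97 (SE 0.26, adjusted p = 0.00251), or 3.91-fold (95% confidence interval 2.60 to 5.88). It was called without each of the 8 libraries in turn.

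Lpin1 (chr12:16535669-16610966, minus strand), which encodes the phosphatidate phosphatase lipin-1, had 472, 561, 533 and 523 CPM in WT females, 366, 345, 212 and 394 CPM in Y665F females and 725, 549, 474 and 496 CPM in Y665H females. The Y665F females lay below both other groups, which overlapped each other. The log2 fold change between the mutants was 0.92 (SE 0.24, adjusted p = 0.0323). Over single omissions this call was the least firm of the 5. It was lost without Y665F female 1 (adjusted p = 0.0641), Y665F female 2 (0.0586), Y665F female 4 (0.0516), Y665H female 1 (0.0780) or Y665H female 2 (0.0613). In the 6 alternatives other than omissions Lpin1 was called each time, and Acsl1 in 5.

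The 2 diacylglycerol acyltransferases, which are unrelated in sequence and catalyse the same last step, differed in their spread. Dgat1 (chr15:76502015-76511953, minus strand) had 171, 189, 203 and 193 CPM in WT females, 145, 157, 108 and 169 CPM in Y665F females and 312, 264, 272 and 253 CPM in Y665H females. The 3 groups did not overlap, in the order Y665H, WT, Y665F, as for Slc27a1. The difference between the mutants was 2.11-fold (95% confidence interval 1.62 to 2.74), a log2 fold change of 1.08 (SE 0.17, adjusted p = 0.00470), and it was called without each of the 8 libraries in turn. Dgat2 (chr7:99153658-99182719, minus strand) had 2425, 4103, 3173 and 2365 CPM in WT females, 1624, 2776, 1339 and 2350.1 CPM in Y665F females and 3301, 2649, 2357 and 3596 CPM in Y665H females. The groups overlapped, and the log2 fold change of 0.70 (SE 0.27, adjusted p = 0.111) was not called, although DESeq2 called it (adjusted p = 0.0323).

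Without Y665F female 3, the library with the high epithelium sum, 6 of the 10 genes were called between the mutants in females, Fabp4 being the sixth. Other counts over single omissions ran from 3 to 5. Other cell markers moved with the same contrast. The skeletal muscle sums were 29.1, 189, 2091 and 628 CPM in Y665H females and 57.8, 41.3, 185 and 60.8 CPM in Y665F females, and 10 of the 15 muscle genes tested were called higher in Y665H. The thermogenic adipocyte sums were 148, 242, 49.9 and 60.9 CPM in Y665H and 13.3, 15.3, 27.4 and 15.8 CPM in Y665F females, with 6 of 8 genes called higher. The adipocyte sums were 25186, 25202, 25979 and 22494 CPM in Y665H and 19382, 20284, 12139.9 and 19824 CPM in Y665F females, with 2 of 12 genes called higher and a median log2 fold change of 0.45. Of the 14 T and NK cell genes, 9 were called lower in Y665H, with sums of 7.46 to 30.9 CPM against 36.3 to 52.6 CPM. Of the other immune lists, 7 of 9 B cell and 6 of 12 macrophage genes were called lower in Y665H, and all of the macrophage genes had a value below 0. Of the epithelium and progenitor lists 0 of 10 genes each were called, and of the endothelial list 1 of 10, higher. The part of the other cell markers in these differences was not tested.

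**Figure D2:**
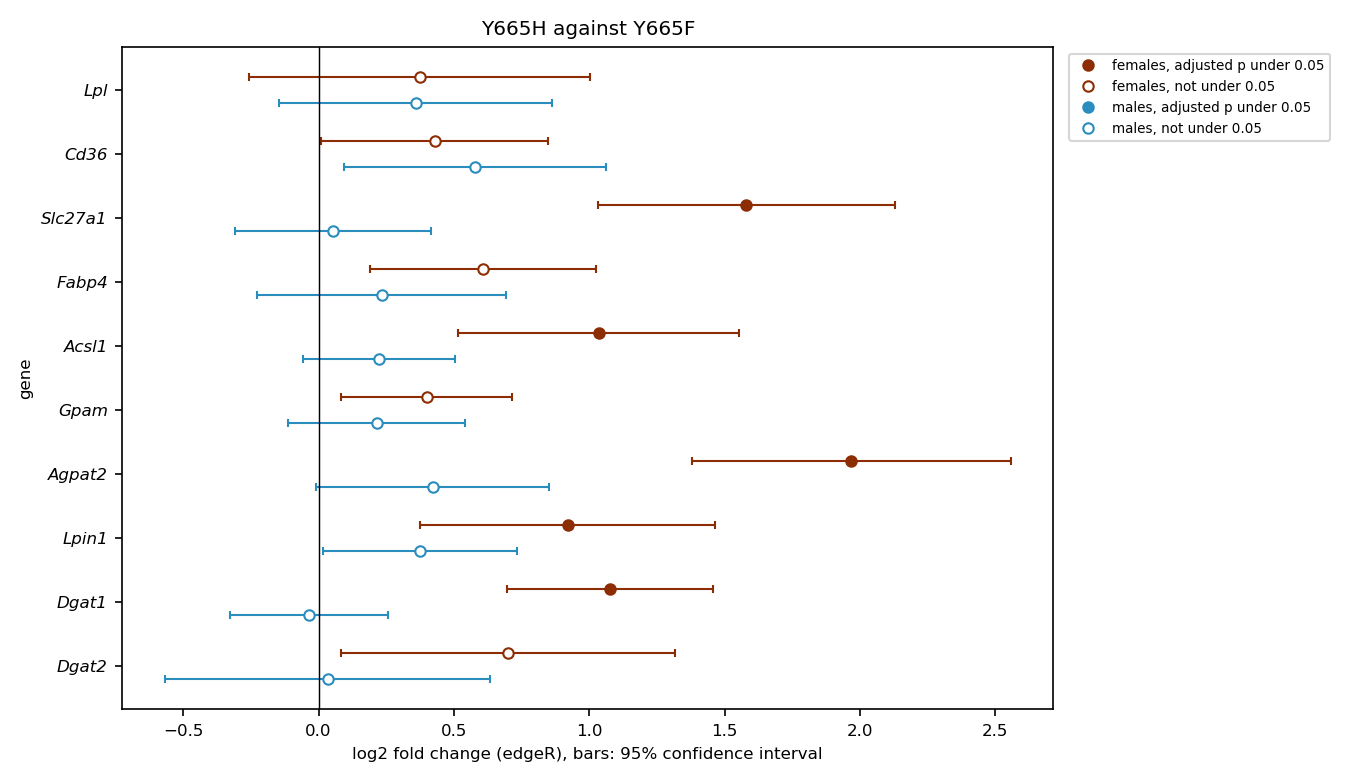
Log2 fold changes of the 10 genes between Y665H and Y665F (horizontal axis, positive where Y665H is higher), in females and in males, with 95% confidence intervals from the edgeR fits of 8 libraries each. Filled points have an adjusted p under 0.05. The 5 filled points are all in females, from 0.92 for Lpin1 to 1.97 for Agpat2, and the values in males lie between -0.04 and 0.58.

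In males the same contrast gave no call among the 10 genes, where 1.03% of the 15986 genes tested were called and 0.125% were called higher. At an unadjusted p under 0.05 there were 2 genes, Cd36 and Lpin1, and DESeq2 called 0. The median log2 fold change was 0.23, with 9 of 10 above 0. The 2 genes whose male groups did not overlap (12.5% of all genes tested, 6.29% with Y665H higher) were Cd36 and Lpl. Cd36 had 2053, 2032, 1767 and 1213 CPM in Y665F males and 2826, 2233, 2445 and 3513 CPM in Y665H males, a log2 fold change of 0.58 (SE 0.21, adjusted p = 0.207). Lpl had 6965, 7114, 5657 and 3833 CPM in Y665F males and 8346, 8149.7, 7351 and 7572 CPM in Y665H males, a log2 fold change of 0.36 (SE 0.22, adjusted p = 0.431), and its groups overlapped once the levels were scaled by TMM factors. Lpin1 had 393, 496, 442 and 362 CPM in Y665F and 564, 599, 472 and 646 CPM in Y665H males, with 1 Y665H library inside the Y665F range and a log2 fold change of 0.38 (SE 0.16, adjusted p = 0.255). Among the marker lists, 4 of 14 T and NK cell genes were called lower in Y665H males and 1 of 10 progenitor and fibroblast genes higher. The other marker lists had no call, and the part of these markers was not tested.

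The genes with firm calls in females were not called between the mutants in males. Slc27a1 had 316, 392, 400.1 and 349.6 CPM in Y665F males and 403, 335, 326 and 512 CPM in Y665H males, and Dgat1 135, 159, 149.9 and 124 CPM and 149, 150.5, 126 and 149.5 CPM. Both pairs of groups overlapped. Agpat2 had 225, 231, 177 and 149 CPM in Y665F males and 347, 252, 222 and 267 CPM in Y665H males, with 1 Y665H library inside the Y665F range. The term for the difference between the sexes in this contrast (males minus females, 16 libraries) was called for these 3 genes, all negative, where 0.868% of the 16481 genes tested were called and 0.692% were called negative. It was -1.54 (SE 0.30, adjusted p = 0.0302) on the log2 scale for Slc27a1, -1.57 (SE 0.34, adjusted p = 0.0476) for Agpat2 and -1.13 (SE 0.23, adjusted p = 0.0355) for Dgat1. These 3 calls were close to the threshold and most single omissions ended them. Slc27a1 was called only without Y665F male 4, Y665H female 1, Y665H female 2 or Y665H female 4, Agpat2 only without Y665F male 4 or Y665F female 2, and Dgat1 only without Y665F male 4, Y665F female 2 or Y665F female 3. Under the other omissions the adjusted p ran from 0.0536 to 0.0843 for Slc27a1, 0.0649 to 0.119 for Agpat2 and 0.0513 to 0.0977 for Dgat1, each highest without Y665H male 3. The sign was negative in all of these fits, and in a fit over all 24 libraries only the Slc27a1 term was called. Acsl1 had a value of -0.83 (SE 0.26, adjusted p = 0.146), not called.

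Against WT females, 3 of the 10 genes were called higher in Y665H females and none lower: Slc27a1, Acsl1 and Dgat1. Over all 15469 genes tested 3.34% were called and 1.53% were called higher. The same WT libraries serve as controls for both mutants, so the 2 comparisons with WT are not independent. The mean of Slc27a1 was 1331 ± 383 CPM in Y665H females, against 658 ± 86.0 CPM in the WT (SD, n = 4 each), or 2.07-fold (95% confidence interval 1.48 to 2.89), and its log2 fold change was 1.05 (SE 0.22, adjusted p = 0.0400). Acsl1 averaged 4417 ± 490.1 against 2943 ± 349 CPM, a log2 fold change of 0.60 (SE 0.14, adjusted p = 0.0486). Dgat1 averaged 275 ± 25.9 against 189 ± 13.4 CPM, a log2 fold change of 0.56 (SE 0.11, adjusted p = 0.0382). In 1 more gene, Gpam, with 661, 630.4, 538 and 484 CPM in WT females, the groups did not overlap either, and the log2 fold change of 0.44 (SE 0.13, adjusted p = 0.0890) was not called; 4 of 10 groups without overlap compare with 13.3% of all genes tested, 6.45% with Y665H higher. The calls were near the threshold, and in a fit over all 24 libraries only Slc27a1 was called. All 3 held without WT female 3, and Slc27a1 also without Y665H female 4 (adjusted p = 0.0474). Under every other single omission (WT female 1, 2 or 4, Y665H female 1, 2 or 3, and for Acsl1 and Dgat1 Y665H female 4) the adjusted p was 0.0501 to 0.123 for Slc27a1, 0.0523 to 0.147 for Acsl1 and 0.0528 to 0.119 for Dgat1.

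The other 6 genes had overlapping levels in Y665H and WT females. Lpl averaged 6987 ± 574 CPM in Y665H females, against 7408 ± 754 CPM in the WT, Cd36 2341 ± 317 and 2183 ± 186 CPM, and Dgat2 2976 ± 572 and 3016 ± 812 CPM (SD, n = 4 each). The 95% confidence interval of the log2 fold change was -0.33 to 0.18 for Lpl, -0.14 to 0.37 for Cd36 and -0.50 to 0.49 for Dgat2. Fabp4, Agpat2 and Lpin1 were not called either. Of the marker lists, the muscle sums in WT females were 707, 99.6, 132 and 1194 CPM and the thermogenic sums 49.1, 67.6, 66.8 and 104 CPM. Both overlapped those of Y665H females, and 0 of 15 muscle and 1 of 8 thermogenic genes were called, the latter higher in Y665H. Of 13 T and NK cell genes 2 were called lower, and of 12 adipocyte genes 1 was called higher and 1 lower. The remaining marker lists had no call, with 10 of 12 macrophage genes below 0. The part of these markers was not tested.

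Against WT females, the fitted log2 fold change of Y665F females was below 0 for 9 of the 10 genes, but no gene was called, where 3.33% of the 15642 genes tested were called and 1.02% were called lower. At an unadjusted p under 0.05 there were 5 genes, and DESeq2 called 4 lower: Slc27a1, Agpat2, Lpin1 and Dgat1. These 4 were also the genes whose groups did not overlap (22.9% of all genes tested, 2.96% with Y665F lower). Agpat2 averaged 145 ± 47.8 CPM in Y665F females, against 416 ± 225 CPM in the WT (SD, n = 4 each), and its log2 fold change was -1.65 (SE 0.39, adjusted p = 0.0573). Lpin1 averaged 329 ± 80.6 against 522 ± 37.2 CPM, a log2 fold change of -0.79 (SE 0.20, adjusted p = 0.0642). Slc27a1 had a log2 fold change of -0.54 (SE 0.15, adjusted p = 0.0859), Dgat1 of -0.51 (SE 0.15, adjusted p = 0.0921) and Dgat2, whose groups overlapped, of -0.70 (SE 0.29, adjusted p = 0.171). The median over the 10 genes was -0.48, against 0.02 over all genes tested. Gpam was the exception, with a log2 fold change near 0, at 0.04 (SE 0.15, adjusted p = 0.889). Its sign changed when some single libraries were left out. Its levels were 649 ± 87.1 CPM in Y665F females, against 578 ± 81.8 CPM in the WT.

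Several settings put single genes of this comparison past the threshold. Agpat2 was called with library totals in place of TMM (adjusted p = 0.0461) and in a fit over all 24 libraries (adjusted p = 0.0152). Lpin1 was called without Y665F female 3 (adjusted p = 0.0139). Among the marker lists, all 12 adipocyte genes had a fitted value below 0 in Y665F females with a median log2 fold change of -0.38 and 0 called by edgeR (4 at an unadjusted p under 0.05), 5 of 7 thermogenic genes were called lower, and 10 of 14 T and NK cell and 3 of 9 B cell genes were called higher. The skeletal muscle list had the median farthest from 0, -3.94, with all 14 genes tested below 0 and 13 at an unadjusted p under 0.05, though 0 were called. Of 10 endothelial genes 1 was called lower, with 9 below 0. The remaining lists had no call. Of these, the macrophage list had 11 of 12 genes above 0, and the epithelium list 9 of 10, with a median of 2.47. The part of these markers in the levels of the 10 genes was not tested.

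**Figure D3:**
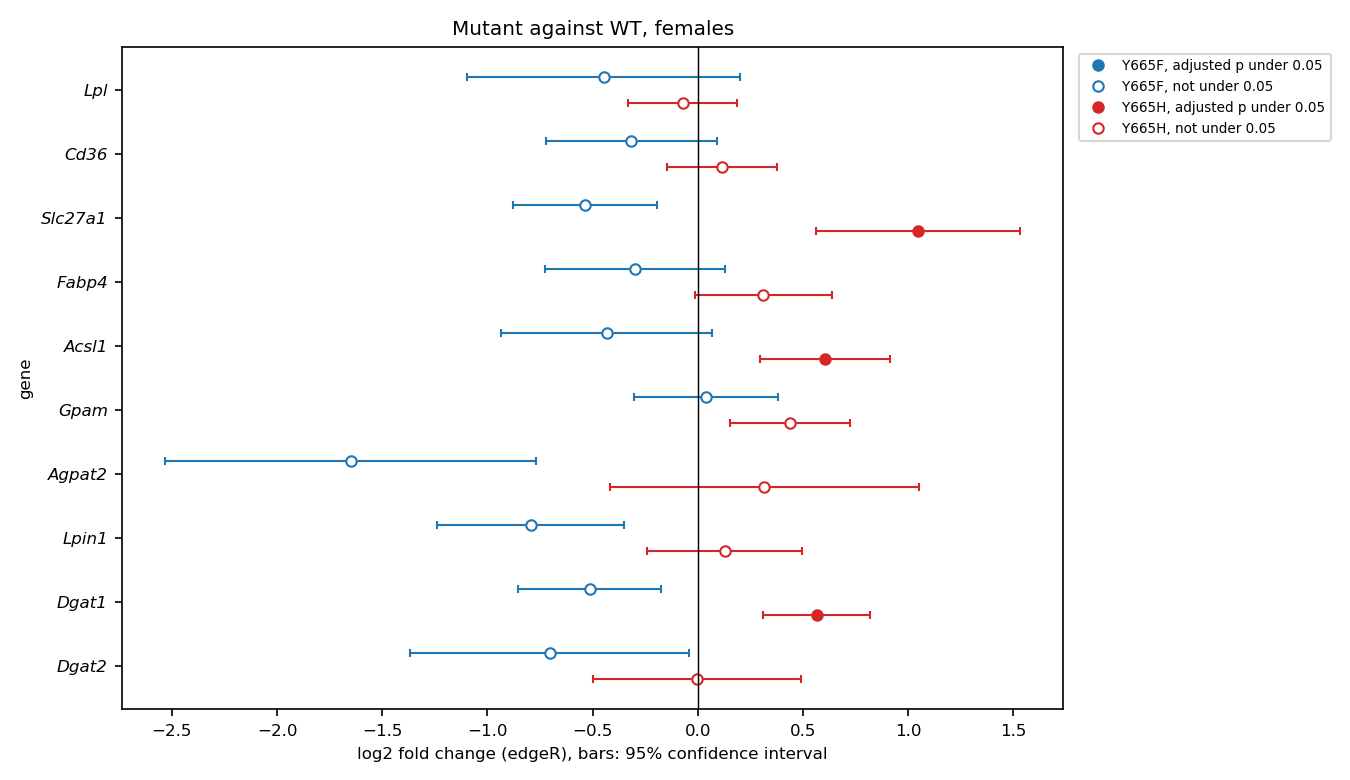
Log2 fold changes of the 10 genes in Y665F and in Y665H females against the same 4 WT females (horizontal axis, positive where the mutant is higher), with 95% confidence intervals. Filled points have an adjusted p under 0.05. The 3 filled points are those of Y665H for Slc27a1, Acsl1 and Dgat1, at 1.05, 0.60 and 0.56, and Agpat2 in Y665F lies farthest to the left at -1.65 with an open point.

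In males neither mutant had a gene of the set called against WT, and over all genes tested the share called was 0% of 16240 for Y665F and 0% of 16406 for Y665H. At an unadjusted p under 0.05 there were 0 of the 10 genes in both comparisons and DESeq2 called 0 in both, while over all genes 2772 and 1874 had an unadjusted p under 0.05. By the SD in percent of the mean, the WT males were the most variable group for every gene but Agpat2 (40.9%, against 54.1% in WT females). None of the 10 genes had groups that did not overlap (8.85% of all genes tested for Y665F and 3.6% for Y665H). Lpl had 7915, 2771, 4869 and 3898 CPM in WT males, which spans all 4 Y665F males and reaches into the Y665H range. Cd36 had 2729.8, 869, 1542 and 1805 CPM and Fabp4 3956, 1234, 2926 and 2914 CPM in WT males, with WT male 2 lowest and WT male 1 highest for both. Without WT male 2, which had the highest epididymis sum, still no gene of the 10 was called in either comparison. These fits kept WT male 3 and WT male 4, whose epididymis sums were 3415 and 1259 CPM. The lowest adjusted p was then 0.408 (Slc27a1) for Y665F and 0.604 for Y665H, a value that Lpin1 and Dgat2 shared. For Dgat2 the log2 fold change had a 95% confidence interval of -0.19 to 1.67 in Y665F males and of -0.03 to 1.60 in Y665H males, so that a log2 fold change of 1 lies inside both intervals.

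Transcript levels of Acsl1 and Gpam, the activating and the first acylating enzyme, were lower in males than in females in all 3 genotypes. In WT, 2 of the 10 genes were called lower in males and none higher (13.1% of the 15865 genes tested were called, 5.95% lower), in Y665F also 2 (15.1% of 15622, 7.52% lower), and in Y665H 5 (28.8% of 15742, 13.7% lower). These 2 were the called genes common to the 3 comparisons, which share no library. Acsl1 had 1511, 822, 1249.5 and 1793 CPM in WT males, 1404, 1364, 1196 and 1256 CPM in Y665F males and 1811, 1552, 1529 and 1403 CPM in Y665H males, so that each male group lay below the females of its genotype. Its log2 fold change, male against female, was -1.28 (SE 0.25, adjusted p = 0.0206) in WT, -0.85 (SE 0.21, adjusted p = 0.0351) in Y665F and -1.64 (SE 0.14, adjusted p = 0.000215) in Y665H. Gpam had 319, 180.3, 281 and 389 CPM in WT males, 274, 319, 274 and 234 CPM in Y665F males and 319, 344, 285 and 381 CPM in Y665H males. No male library of any genotype reached the lowest female library of the series. Its log2 fold change was -1.14 (SE 0.23, adjusted p = 0.0223) in WT, -1.21 (SE 0.16, adjusted p = 0.00643) in Y665F and -1.37 (SE 0.12, adjusted p = 0.000215) in Y665H.

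In Y665H, Slc27a1, Agpat2 and Dgat1 were called lower in males as well, with log2 fold changes of -1.93 (SE 0.23, adjusted p = 0.000642), -1.08 (SE 0.17, adjusted p = 0.00183) and -1.09 (SE 0.12, adjusted p = 0.000462). These 5 Y665H calls each held without each of the 8 libraries in turn, and the 5 genes were those whose groups did not overlap (32.5% of all genes tested, 8.87% with males lower). The non-overlapping genes were Acsl1 and Gpam in WT (25.2% of all genes tested, 7.01% lower) and Slc27a1, Acsl1 and Gpam in Y665F (24.8%, 13.5% lower). Slc27a1 had 397, 270.3, 455 and 644 CPM in WT males, which reached the WT female range, and its log2 fold change was -0.73 (SE 0.24, adjusted p = 0.0740) in WT and -0.42 (SE 0.15, adjusted p = 0.0949) in Y665F, not called. It was called without WT male 4 in WT (adjusted p = 0.0444) and without Y665F female 3 in Y665F (adjusted p = 0.0447). Lpl and Cd36 averaged 7855 ± 469.6 and 2754 ± 562 CPM in Y665H males (SD, n = 4), against 6987 ± 574 and 2341 ± 317 CPM in Y665H females, with 95% confidence intervals of -0.24 to 0.29 and -0.25 to 0.40 for the log2 fold change. Also not called in Y665H were Fabp4, at -0.36 (SE 0.13, adjusted p = 0.0661), Lpin1, at -0.14 (SE 0.18, adjusted p = 0.594), and Dgat2, at -0.34 (SE 0.19, adjusted p = 0.228). In this genotype a large gap between the sexes in the transport protein, the synthetase and 3 acyltransferases thus stood beside small ones in the other genes of the set. In WT, Agpat2 had -1.13 (95% confidence interval -2.11 to -0.14) and Dgat2 -1.12 (SE 0.37, adjusted p = 0.0772) on the log2 scale, not called. Without WT male 1, Dgat2 was called (adjusted p = 0.0149), and so was Lpl, at -1.12 (adjusted p = 0.0179) in place of -0.74 (adjusted p = 0.177).

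The WT and Y665F calls, except that of Gpam in Y665F, were less firm than those of Y665H. In WT, Acsl1 was lost without WT male 3 or any 1 of the 4 WT females (adjusted p 0.0606 to 0.0749), and so was Gpam (adjusted p 0.0606 to 0.0748). In Y665F, Acsl1 held only without Y665F female 3 (adjusted p = 0.00783) and was lost without each of the other 7 libraries (adjusted p 0.0631 to 0.101), whereas Gpam was called in all 8 fits. Without WT male 2 the WT values were 0.0151 for Acsl1 and 0.0155 for Gpam, as adjusted p. Muscle and thermogenic markers were lower in males of WT and Y665H too, with 10 of 14 muscle genes called lower in WT and 14 of 15 in Y665H, and 6 of 7 and 7 of 8 thermogenic genes. In Y665F, where Gpam and Acsl1 were also lower in males, 0 of 13 muscle genes and 1 of 6 thermogenic genes were called lower. The progenitor and fibroblast list was lower in males of all 3 genotypes, as Acsl1 and Gpam were, with 8 of 10 genes called in WT, 5 of 10 in Y665F and 6 of 10 in Y665H. Of the 12 adipocyte genes, 0, 0 and 3 were called lower and 0, 1 and 1 higher, in the same order. The part of these markers in the differences between the sexes was not tested. Epididymis markers were at 1.30 to 15399 CPM in WT males, 0.502 to 1109 CPM in Y665F males and 2.24 to 1628 CPM in Y665H males, against at most 2.16 CPM in any female library.

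**Figure D4:**
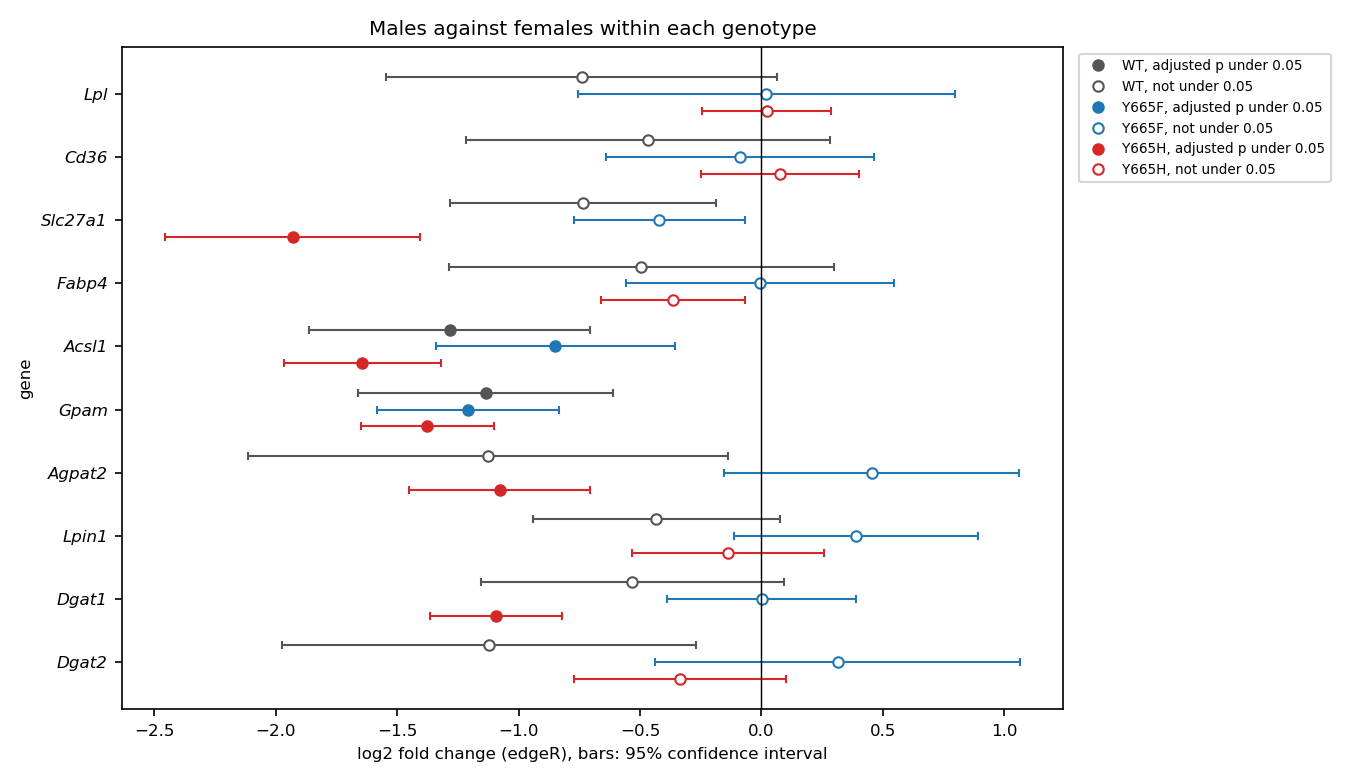
Log2 fold changes of the 10 genes in males against females within WT, Y665F and Y665H (horizontal axis, negative where males are lower), with 95% confidence intervals from 8 libraries each. Filled points have an adjusted p under 0.05. Acsl1 and Gpam are filled in all 3 genotypes, and Slc27a1 in Y665H lies farthest to the left at -1.93.

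Whether each mutation acts differently on the set in the 2 sexes was tested against WT as well, over 16 libraries each. For Y665F no gene of the 10 was called and 0% of the 16732 genes tested were, with 3 of the 10 at an unadjusted p under 0.05 and 1, Agpat2, called by DESeq2. The values, males minus females, were 1.59 (SE 0.54, adjusted p = 0.152) for Agpat2, 0.83 (SE 0.33, adjusted p = 0.178) for Lpin1 and 1.44 (SE 0.52, adjusted p = 0.159) for Dgat2. Dgat2 was called without WT male 1 (adjusted p = 0.0390). For Y665H no gene of the 10 was called and 0.0119% of the 16827 genes tested were, with 1 of the 10, Slc27a1, at an unadjusted p under 0.05. Its value was -1.20 (SE 0.35, adjusted p = 0.148), and DESeq2 called it (adjusted p = 0.0234). Lpl, of the opposite sign at 0.76 (SE 0.38, adjusted p = 0.294), was called without WT male 1, at 1.17 (adjusted p = 0.0158).

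Genes that surround the 10 in the pathway were described from 5 lists. In Y665H against Y665F females, 5 of 12 tested partners and regulators of LPL were called higher and none lower. Apoc1, which encodes an apolipoprotein of triglyceride-rich particles, averaged 10.8 ± 2.11 CPM in Y665F and 35.0 ± 2.00 CPM in Y665H females (SD, n = 4), and its log2 fold change was 1.84 (SE 0.16, adjusted p = 0.00148). Apoc3, an inhibitor of LPL, was at a low level of 0.345 ± 0.0519 and 1.81 ± 0.369 CPM, with 2.54 (SE 0.24, adjusted p = 0.00148). Angptl8, which encodes an angiopoietin-like protein, had a log2 fold change of 1.29 (SE 0.29, adjusted p = 0.0184). Of 12 other uptake and carrier genes, Fabp5, the second fatty acid carrier of fat cells, was called higher at 1.27 (SE 0.32, adjusted p = 0.0285), and Slc27a3 and Got2 lower at -0.67 (SE 0.14, adjusted p = 0.0169) and -0.59 (SE 0.13, adjusted p = 0.0179). None of the 5 other acyl-CoA synthetases tested was called by edgeR.

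Of 13 other acyltransferases, lipins and assembly factors tested, 5 were called higher and 2 lower in this contrast. Mogat1, a monoacylglycerol acyltransferase, had 1.44 (SE 0.20, adjusted p = 0.00324), the lipid droplet assembly gene Bscl2, which encodes seipin, 0.94 (SE 0.18, adjusted p = 0.00961), Gpat3, the second glycerol 3-phosphate acyltransferase of fat cells, 1.08 (SE 0.21, adjusted p = 0.0114) and Agpat3 0.60 (SE 0.12, adjusted p = 0.0125). Gpd1, which makes glycerol 3-phosphate, was the 1 gene called of 5 for its supply, at 653 ± 328 CPM in Y665F and 1694 ± 387 CPM in Y665H females and a log2 fold change of 1.52 (SE 0.38, adjusted p = 0.0280). Against WT females, Apoc1 was called lower in Y665F, at -0.76 (SE 0.16, adjusted p = 0.0435), and higher in Y665H, at 1.08 (SE 0.11, adjusted p = 0.00530); these comparisons share the WT libraries. Apoc3 was also called higher in Y665H than in WT females, at 1.71 (SE 0.29, adjusted p = 0.0244), and Lpin3, a lipin of low level here, lower, at -0.97 (SE 0.15, adjusted p = 0.0196). In males, Apoc1 was the only gene of the 5 lists called between the mutants, at 0.84 (SE 0.15, adjusted p = 0.0399).

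Between the sexes, genes of the 5 lists were called in both directions. In Y665H, where 28.8% of all genes tested were called, 2 partners of LPL were called higher and 3 lower in males, 2 and 2 of the uptake genes, 1 and 0 of the synthetases, 2 and 2 of the acyltransferases, lipins and assembly factors, and 1 and 1 of the genes for glycerol 3-phosphate supply. Lower in males were Gpat3, at -1.18 (SE 0.14, adjusted p = 0.000585), Gpd1, at -1.25 (SE 0.24, adjusted p = 0.00498), Fabp5, at -1.49 (SE 0.30, adjusted p = 0.00622), Bscl2, at -0.78 (SE 0.13, adjusted p = 0.00255), and, at low levels, Fabp3 and Apoc3, as well as Angptl8. Higher in males were Acsbg1, an acyl-CoA synthetase, at 5.62 (SE 0.65, adjusted p = 0.000584), Lpin3, at 0.99 (SE 0.13, adjusted p = 0.000941), Lpin2, at 0.54 (SE 0.11, adjusted p = 0.00778), the apolipoprotein gene Apoe, at 0.53 (SE 0.12, adjusted p = 0.00887), Cav1, Got2 and Gk. In WT, with 13.1% of all genes called, Gpd1 and Fabp5 were lower in males, at -1.21 (SE 0.32, adjusted p = 0.0448) and -1.29 (SE 0.34, adjusted p = 0.0435). Gk, the glycerol kinase gene, at 2.67 (SE 0.53, adjusted p = 0.0210), Acsbg1, at 5.69 (SE 0.55, adjusted p = 0.00256), Slc27a2, Got2 and Apoc1 were higher in WT males. Acsbg1 averaged 37.1 ± 26.0 CPM in WT males and 0.630 ± 0.177 CPM in WT females (SD, n = 4 each), and the epididymis markers given above differed between the sexes as well. In Y665F, with 15.1% of all genes called, no gene of the 5 lists was called lower in males, and 2 partners of LPL, 2 uptake genes and 2 acyltransferases were called higher, among them Mogat1, at 1.24 (SE 0.25, adjusted p = 0.0191).

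Over the 24 libraries the pairwise Pearson correlations of the 10 genes, as log2(CPM + 1), ran from 0.22 to 0.90 with a median of 0.60, and those of the deviations from the group means from -0.11 to 0.92 with a median of 0.64. The libraries share tissue make-up and depth, so these values are a description with no test. Outside the set, the 5 genes whose level most resembled the mean of the 10 were Fam213a (r = 0.96), Ppp2r5a (0.96), Chpt1 (0.96), Dhdh (0.95) and Cat (0.95), over 24 libraries.

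**Figure D5:**
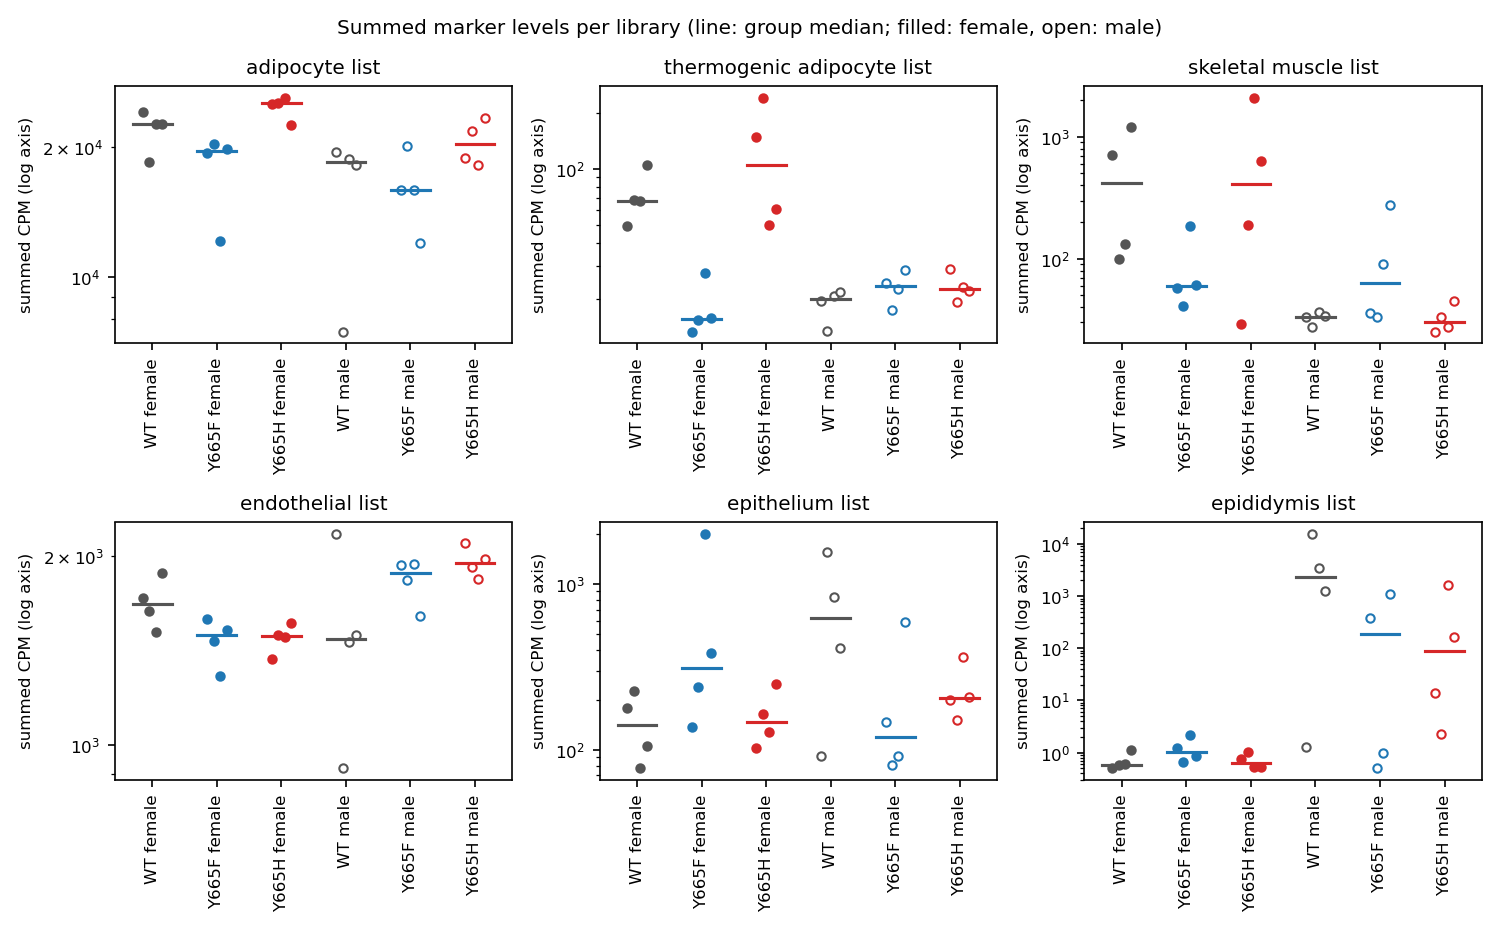
Summed CPM of 6 marker lists in each library (vertical log axis) for the 6 groups, with a line at the group median. The skeletal muscle panel shows a median of 59.3 CPM in Y665F females against 419 CPM in WT and 408 CPM in Y665H females, and the epididymis panel shows WT male 2 at 15399 CPM.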

How the data were processed

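Adipose RNA was sequenced in 24 libraries, 4 in each of 6 groups of genotype and sex, grouped by sample title. Per the labels' protocols, ribosomal RNA was removed and stranded TruSeq total RNA libraries were read as pairs. The deposited files hold raw counts per gene symbol, made by the authors. Per the submitters' processing notes, which give no order or role, FastQC 0.11.9, Trimmomatic 0.36, STAR, SAMtools 1.9, Picard 2.9.2, HTSeq 0.9.1 and the build mm10 were used. The annotation and the strand setting of the counting are not given in the sources used here, so reads of overlapping or antisense genes may be shared.

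The 5 entries that name no gene, 24.8 to 39.7% of a library's counts, entered neither the library sizes nor the tests. Levels are counts per 1e6 gene counts (CPM). Depth was 21.0 to 41.3 M (1e6) gene counts; limits from counts cover counting error only. Genes were tested with edgeR 4.0.16 (R 4.3.3, limma 3.58.1) by the quasi-likelihood F test with TMM scaling, the default filterByExpr filter and Benjamini-Hochberg adjustment over all genes tested, at a threshold of 0.05. Each contrast of a pair of groups was fitted on its 8 libraries and each sex term on 16. All 10 genes passed the filter in all 12 comparisons. Alternatives were the DESeq2 1.42.0 Wald test, its size factors, library totals, no filter, a fit over 24 libraries, a replicate block and leaving out each library. The edgeR script was tested on simulated data. Scaling by library totals moved the median log2 fold change of all genes by 0.13 for Y665F against WT females, by -0.15 for Y665H against Y665F females and by 0.17 and 0.16 for males against females in WT and Y665H, so fold changes are relative to TMM. Transcript lengths and positions are from GENCODE M21 on mm10.

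The 10 genes, the related lists and the marker lists were chosen with earlier results of these data known. The text names all 10 genes, at most 4 called genes per related list and comparison by smallest p, and the 5 genes most like the mean of the 10. Other called genes of the lists are given by counts, and results by name for some are not reported here. Same-numbered libraries correlated from -0.38 to 0.73 in their deviations from the group means, with 11 of 36 pairs over 0.1, so the replicate numbers were not taken to pair libraries.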

Additional observations from a re-analysis of the deposited data

Results flagged for a closer look

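In 2 of the 60 groups of 4 levels (10 genes in 6 groups), 1 library lay far from the other three by Dixon's criterion; chance flags about 1 group in 20. Fabp4 was lowest in Y665H female 4, at 3601 CPM against 4501 to 4647 CPM in the other Y665H females. Without that library, Fabp4 was called lower in Y665H males than in Y665H females (adjusted p = 0.0250 in place of 0.0661). Dgat1 was lowest in Y665H male 3, at 125.6 CPM against 149.5 to 150.5 CPM in the other Y665H males.

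For 3 genes the difference between the mutants differed between the sexes by the interaction term of edgeR's test, 16 libraries each, out of 30 such terms for the 10 genes. The term, males minus females on the log2 scale, was -1.54 for Slc27a1, -1.57 for Agpat2 and -1.13 for Dgat1, and each value lies near the threshold as described above.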

How the results depend on the processing

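No called value changed sign in any of 304 alternative values of the 20 calls. Nor did any of 44 fold changes chosen by rule. The rule took an unadjusted p under 0.05, groups that did not overlap, or the contrast of the mutants in females. It thus included the 20 calls and favoured values large against their spread, so this count adds little to that of the calls. Of 100 uncalled values, 28, all between -0.22 and 0.20 on the log2 scale, changed sign in at least 1 alternative. Both contrasts of males with WT and that of Y665H with Y665F males had 0 genes called in every alternative run.

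For Y665F against WT females, 0 genes were called, against 4 with DESeq2, 1 with library totals, 1 in the fit over 24 libraries and 0 to 1 when single libraries were left out. For Y665H against WT females, 3 became 1 in the fit over 24 libraries and 0 to 3 over omissions. For Y665H against Y665F females, 5 became 8 with DESeq2 and 3 to 6 over omissions. For males against females, 2 in WT became 5 with DESeq2, 5 in the fit over 24 libraries and 0 to 4 over omissions, 2 in Y665F became 1 without the filter on low counts and 1 to 3 over omissions, and 5 in Y665H became 5 to 6. For the sex terms, 0 became 1 with DESeq2 and 0 to 1 over omissions for Y665F and for Y665H against WT, and 3 became 1 in the fit over 24 libraries and 0 to 3 over omissions for the mutants. Acsl1 was also lost without the filter on low counts in Y665H against WT females (adjusted p = 0.0642) and between the sexes in Y665F (0.0613), and the Agpat2 sex term with DESeq2's size factors (0.0535) and without the filter (0.0654). The cause of these changes was not tested.

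With the replicate number as a block, Y665F against WT females had 1 gene called in place of 0 (Agpat2, adjusted p = 0.0343), Y665H against WT females 0 in place of 3, Y665H against Y665F females 4 in place of 5 (Acsl1 at 0.0680), and males against females 1 in place of 2 in WT and 1 in place of 2 in Y665F. The other counts with the replicate block were 0, 3 or 5, as without it. With TMM-scaled CPM, 1 gene in place of 2 had groups that did not overlap between the mutants in males, 6 in place of 2 between the sexes in WT, 2 in place of 3 between the sexes in Y665F, 6 in place of 4 for Y665F against WT females and 7 in place of 6 between the mutants in females. Each of the 10 genes was counted far above 3 counts in each library.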
